A study of Arabidopsis thaliana with 13 samples.

Results

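Transcript levels of 7 Arabidopsis genes are described across 4 groups of sorted root cells: the corepressor gene TOPLESS (TPL, AT1G15750), its relatives TPR1 (AT1G80490), TPR2 (AT3G16830), TPR3 (AT5G27030) and TPR4 (AT3G15880), the histone deacetylase gene HDA19 (AT4G38130), and CDF4 (AT2G34140), a gene for a Dof-type zinc finger protein. They were chosen by identifier as the genes of known repression partners of the homeobox protein WOX5, with the relatives of one of them, and of a known WOX5 target, and make up 7 of the 33560 genes in the deposited table. The study sorted GFP-positive cells by flow cytometry from protoplasted roots of 5 day old Col-0 seedlings and concerned feedback among PERIANTHIA, WOX5 and GRF-INTERACTING FACTOR 1. QC-marker cells carried WOX5::GFP, a reporter of the quiescent centre (QC), and were sorted from the wox5-1 mutant (4 libraries) and from the wild type (WT, 3 libraries). CYCD6::GUS-GFP marked the cortex/endodermis initial (CEI), and these CEI-marker cells were sorted from wox5-1 (3 libraries) and from WT (3 libraries). The labels give no other allele or agent for any group. The promoter of the QC reporter is that of the gene mutated in wox5-1.

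TPL and the TPR proteins do not bind DNA themselves. Transcription factors with short repressor motifs recruit them, and they in turn bring in histone deacetylases such as HDA19, which remove acetyl groups from histones and so close chromatin. In the root tip, WOX5 is made in the QC and is known to recruit TPL and HDA19 to CDF4, keeping CDF4 low in the columella stem cells below the QC, where CDF4 promotes differentiation. WOX5 thus acts in this pathway by lowering a target gene, through partners that many other repressors share.

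Levels are in FPKM, the fragments of a gene scaled to its length and to the mapped fragments of the library. WOX5 itself was at 0, 0.114, 0.0785 and 0.0529 FPKM in wox5-1 QC-marker libraries 1 to 4, against 254.7, 261.9 and 163 FPKM in WT QC-marker libraries 1 to 3. The 12 QC and niche markers summed to between 1752 and 2048 FPKM in wox5-1 and between 1727 and 2498 FPKM in WT QC-marker cells, against 89.1 to 175.7 FPKM in wox5-1 and 277.4 to 579.4 FPKM in WT CEI-marker cells. WOX5, the mutated gene, is itself 1 of these 12 and enters their sums, median and calls. Of the 12, 1 had a positive change in wox5-1 against WT QC-marker cells (median log2 change -0.79, against 0.32 over all genes). By limma 1 was called lower, where 0.38% of all genes were. With WOX5 among the 12, this call does not by itself show that another marker was lower. Of 6 epidermis and root hair markers, 5 had a positive change there (median 1.41) and 0 were called, with sums of 394.9 to 589.3 FPKM in wox5-1 and 97.75 to 431.5 FPKM in WT QC-marker cells. Their part in the changes of the 7 genes was not tested. Estimated depth was 24.7 to 39.5 M (mega) fragments in wox5-1 and 6.17 to 8.14 M in WT QC-marker libraries, and 18.2 to 30.9 M in wox5-1 and 18.3 to 31.4 M in WT CEI-marker libraries, so that in QC-marker cells the genotypes and their depths cannot be told apart. A few libraries stood apart from their groups. In WT QC-marker library 2, 19783 genes were at 0, where the 12 others had 5385 to 12971. WT CEI-marker library 4 summed to 2463 FPKM over the columella and root cap markers, and wox5-1 CEI-marker library 1 to 11780 FPKM over the green tissue markers.

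HDA19 was the most abundant of the 7 transcripts in 13 of 13 libraries. It stood between the percentiles 80.6 and 95.4 of all genes tested in a library, with a median of 91.2. TPL followed at a median percentile of 78.5, then TPR1 at 72.4, TPR4 at 64.8, TPR2 at 59.6 and TPR3 at 52.0. CDF4 had a median percentile of 45.9 and the widest range, 6.4 to 73.0. It was the lowest of the 7 in 7 libraries, TPR3 in 5 and TPL in 1. The corepressor and deacetylase transcripts were thus detected in every library of both populations, and CDF4 ranged from near the bottom to the upper part of the genes tested. In bulk samples such as these, fewer cells that express a gene and less RNA per cell cannot be told apart.

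**Figure D1:**
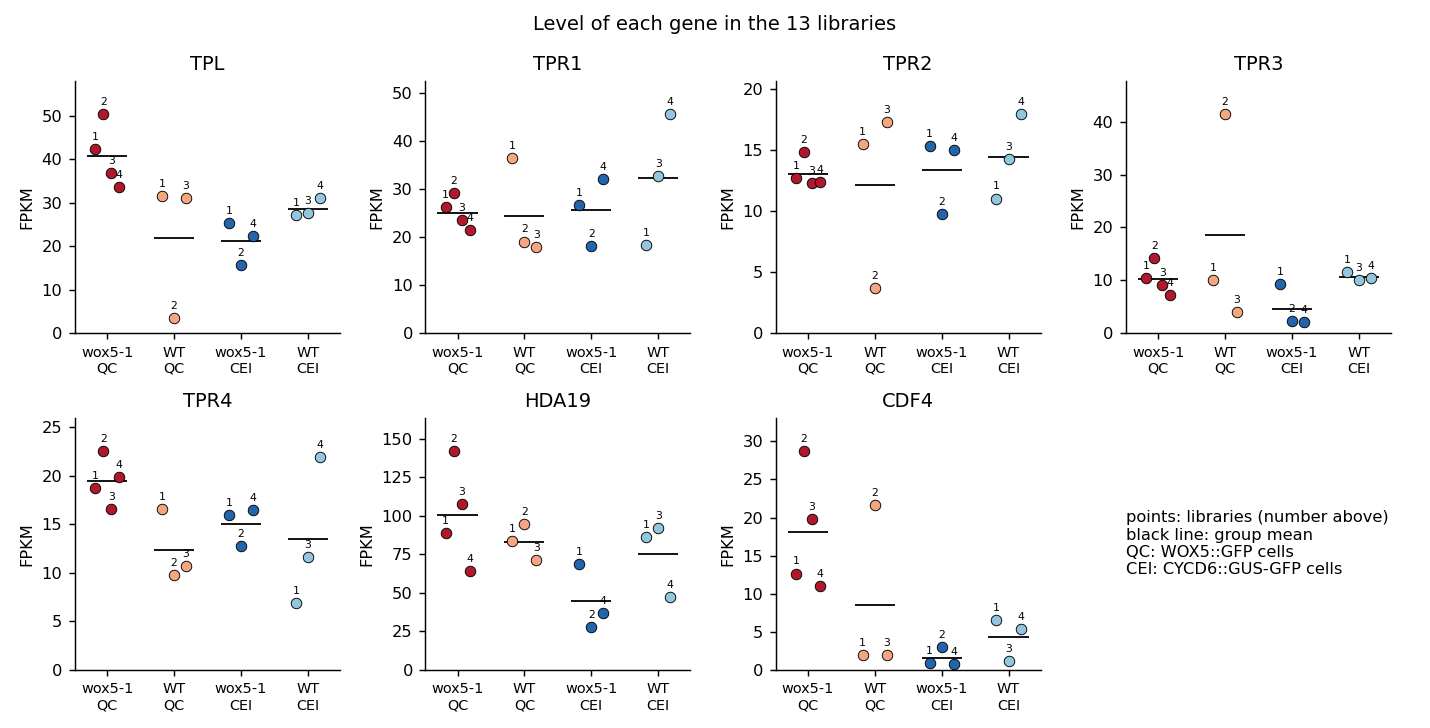
FPKM of each of the 7 genes (1 panel a gene, y axis from 0) in the 13 libraries, with wox5-1 to the left of WT in each population; points are libraries with their number above, and black lines are group means. HDA19 lies between 27.7 and 142.3 FPKM, while CDF4 lies between 10.96 and 28.8 FPKM in wox5-1 QC-marker cells and at 1.90, 21.7 and 1.97 FPKM in WT QC-marker cells.

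Across the comparisons, CDF4 was the one member whose level passed the test over all genes: it was higher in QC-marker than in CEI-marker cells of wox5-1. No TOPLESS family gene passed in any comparison, and neither did HDA19. In wox5-1 against WT QC-marker cells 0 of the 7 were called (adjusted p under 0.05, limma with Benjamini-Hochberg adjustment over 21574 genes), where 3.43% of all genes tested were. At an unadjusted p under 0.05 there were 2, TPL and CDF4, both higher in wox5-1. Their adjusted p were 0.217 and 0.25 in limma. The share of all genes under the unadjusted threshold was not counted, and the 3.43% is not its background. In wox5-1 against WT CEI-marker cells 0 of 7 were called, against 0.0278% of all genes, and 0 had an unadjusted p under 0.05. Between QC-marker and CEI-marker cells 1 of 7 was called in wox5-1, against 4.31% of all genes, and 0 of 7 in WT, against 0.357%. Of the differences between the wox5-1 effects in the 2 populations, 0 of 7 were called, against 0.0232% of all genes.

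**Figure D2:**
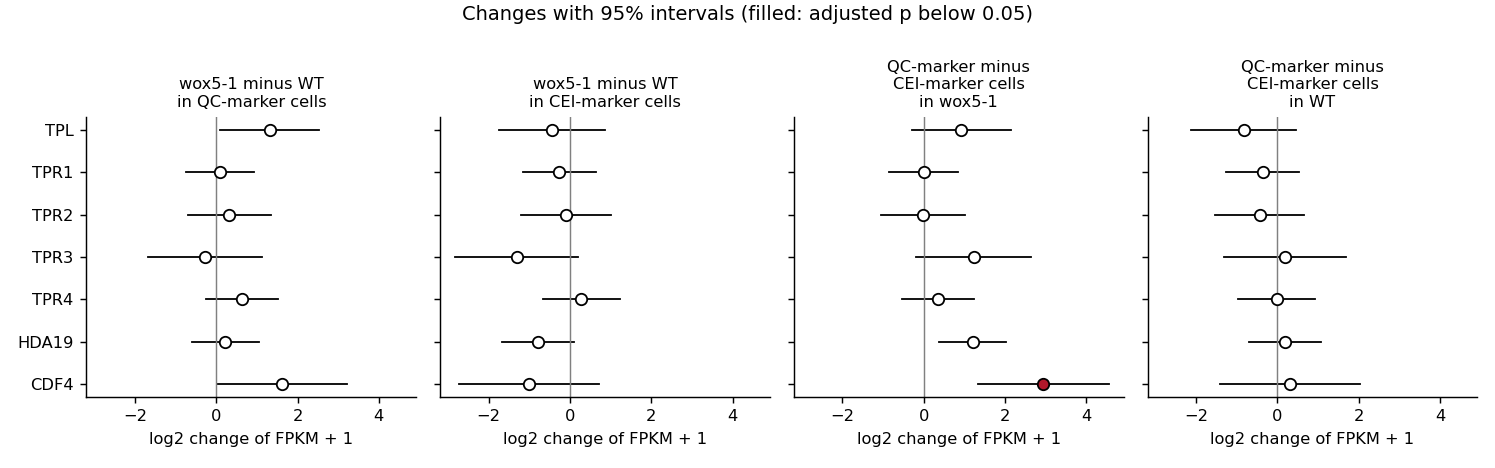
Log2 change of FPKM + 1 (x axis) with its 95% interval for each gene in 4 comparisons; filled points passed the test over all genes. CDF4 in wox5-1 (QC-marker minus CEI-marker cells, 2.94) is the 1 filled point, and most other intervals span 0.

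The members' median log2 change was 0.32 in wox5-1 against WT QC-marker cells, where that of all genes was also 0.32. In CEI-marker cells the members' median was -0.44, against 0.08 over all genes, with 1 of 7 positive. Between the populations it was 0.93 in wox5-1, against 0.30 over all genes, and -0.02 in WT, against -0.10. With the libraries scaled by median of ratios, the medians over all genes were 0.19, 0.11, -0.11 and -0.29 in these 4 comparisons in that order. Between the populations of wox5-1, TPL then differed by 0.46, TPR3 by 0.82, HDA19 by 0.73 and CDF4 by 2.53, against the -0.11 of all genes. TPR1 and TPR2 differed by -0.46 each, below that median, and TPR4 by -0.11.

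TPL is the founding member of the family, named for an allele whose embryos form a root in place of the shoot. Its level was 42.4, 50.5, 37.0 and 33.7 FPKM in wox5-1 QC-marker libraries 1 to 4, against 31.6, 3.40 and 31.0 FPKM in WT libraries 1 to 3. Every wox5-1 library was above every WT library, as were those of 17.8% of all genes tested. The log2 change was 1.32 (SE 0.57, 95% interval 0.10 to 2.53), and it did not pass (adjusted p = 0.217, limma). The size of this change rested on WT library 2, without which it was 0.36. TPL overlaps AT1G15740 on the opposite strand by 103 bases in the TAIR10.1 annotation of RefSeq. That neighbour was at 20.9, 28.2, 18.6 and 13.7 FPKM in the mutant, against 11.01, 0 and 12.7 FPKM in WT QC-marker cells, also apart. The sources used here do not say whether counting used strand, and the part of this overlap in the TPL values was not tested.

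In CEI-marker cells the order of the genotypes was turned round for TPL. It was at 25.4, 15.8 and 22.4 FPKM in wox5-1 libraries 1, 2 and 4, against 27.3, 27.7 and 31.1 FPKM in WT libraries 1, 3 and 4. The groups did not overlap, as in 3.81% of all genes for a lower level in wox5-1. The log2 change of -0.44 (SE 0.61) was smaller than its error and did not pass (adjusted p = 0.870, limma). The difference between the wox5-1 effects in QC-marker and CEI-marker cells was 1.76 (SE 0.83, 95% interval -0.02 to 3.54, adjusted p = 0.450, limma), and 0.80 without WT QC-marker library 2. Group means were 40.9 ± 7.34 FPKM in wox5-1 QC-marker cells (SD, n = 4), 22.0 ± 16.1 FPKM in WT QC-marker cells, 21.2 ± 4.92 FPKM in wox5-1 CEI-marker cells and 28.7 ± 2.11 FPKM in WT CEI-marker cells (SD, n = 3 each). The order from high to low was wox5-1 QC-marker, WT CEI-marker, WT QC-marker and wox5-1 CEI-marker cells, and the last 3 lay within the SD of WT QC-marker cells of each other.

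Between the populations of the mutant, every QC-marker library was above every CEI-marker library in TPL, as in 26.5% of all genes, while in WT the ranges overlapped. The log2 difference in wox5-1 was 0.93 (SE 0.57, adjusted p = 0.372, limma). The same difference passed when WT QC-marker library 2, which is no part of it, was left out of the shared estimate of the spread (SE 0.25, adjusted p = 0.0316), where 11.7% of all genes were called, against 4.31% with it; over all alternatives tried, the adjusted p ran from 0.0093 to 0.760. In WT the difference was -0.83 (SE 0.61), and 0.13 without that library. WT QC-marker library 2 therefore decided the sign in WT.

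TPR1 is the closest relative of TPL, and the single one that shares a run of 50 identical bases with it: 7 of the 4116 windows of that length in the TPL transcript also occur in TPR1, and none of 100 bases does. The read length is not stated. TPR1 was at 26.3, 29.1, 23.4 and 21.4 FPKM in wox5-1 QC-marker cells, against 36.4, 19.0 and 17.9 FPKM in WT. In CEI-marker cells it was at 26.6, 18.1 and 32.0 FPKM in wox5-1, against 18.3, 32.6 and 45.6 FPKM in WT. The groups overlapped in each population, with log2 changes of 0.10 (SE 0.39) in QC-marker cells, -0.055 there after median-of-ratios scaling, and -0.27 (SE 0.42) in CEI-marker cells.

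Outside WT QC-marker library 2, TPR2 was the most even of the family. It was at 12.7, 14.8, 12.3 and 12.4 FPKM in wox5-1 QC-marker cells, against 15.5, 3.68 and 17.3 FPKM in WT. In CEI-marker cells it was at 15.3, 9.77 and 15.03 FPKM in wox5-1, against 11.02, 14.3 and 17.95 FPKM in WT. The 12 other libraries lay between 9.77 and 17.95 FPKM. The log2 change in QC-marker cells was 0.32 (SE 0.48), and -0.31 without that library.

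TPR3 had the widest range of the family relative to its level. It was at 10.5, 14.1, 9.18 and 7.19 FPKM in wox5-1 QC-marker cells, against 10.01, 41.5 and 4.01 FPKM in WT. In CEI-marker cells it was at 9.34, 2.22 and 2.11 FPKM in wox5-1, against 11.6, 9.97 and 10.5 FPKM in WT. The CEI-marker groups did not overlap, WT being higher, as in 3.81% of all genes tested. Still, wox5-1 library 1 was close to the WT values. The log2 change there was -1.31 (SE 0.71, 95% interval -2.82 to 0.20) and did not pass (adjusted p = 0.639, limma). With the 3 libraries that stood apart left out, an alternative chosen after the data were seen, it was -1.89 and passed (adjusted p = 0.0145, within a range of 0.0145 to 1.0 over all alternatives), where 21.9% of all genes were called. In QC-marker cells the log2 change of -0.28 (SE 0.66) turned to 0.56 without WT library 2. Of 2 opposite-strand genes that overlap it in the RefSeq annotation, AT5G27020 was at 0.339 FPKM or lower in every library, and AT5G04345 was not analysed here.

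TPR4, which RefSeq lists as WSIP2, stands for a protein first found as a partner of WUSCHEL, the shoot counterpart of WOX5. It was at 18.7, 22.6, 16.5 and 19.9 FPKM in wox5-1 QC-marker cells, against 16.6, 9.72 and 10.7 FPKM in WT. In CEI-marker cells it was at 16.0, 12.7 and 16.5 FPKM in wox5-1, against 6.88, 11.7 and 21.9 FPKM in WT. In QC-marker cells the lowest wox5-1 library (16.5 FPKM) lay just below the highest WT one (16.6 FPKM), and in CEI-marker cells the wox5-1 range lay inside that of WT. The log2 change of 0.64 (SE 0.41, 95% interval -0.24 to 1.52) did not pass in QC-marker cells (adjusted p = 0.404, limma), and was 0.50 without WT QC-marker library 2. That of 0.28 (SE 0.44) in CEI-marker cells did not pass either, and was 0.68 without WT CEI-marker library 4. Its opposite-strand neighbour AT3G15870 was at 2.24 FPKM or lower in every library.

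Summed over the 5 genes, the family was at 110.6, 131.2, 98.4 and 94.5 FPKM in wox5-1 QC-marker cells, against 110.1, 77.3 and 80.9 FPKM in WT. In CEI-marker cells the sum was 92.7, 58.6 and 88.0 FPKM in wox5-1, against 75.0, 96.2 and 127.0 FPKM in WT. The sum overlapped between the genotypes in both populations. TPL made up 38.3%, 38.5%, 37.6% and 35.7% of it in wox5-1 QC-marker cells, against 28.7%, 4.40% and 38.4% in WT. In CEI-marker cells TPL made up 27.4%, 26.9% and 25.4% in wox5-1, against 36.3%, 28.8% and 24.5% in WT. The make-up of the pool was thus nearly the same in the 4 wox5-1 QC-marker libraries, with TPL at 37.5% ± 1.29 (SD, n = 4), and differed among those of WT, at 23.8% ± 17.5 (SD, n = 3).

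**Figure D3:**
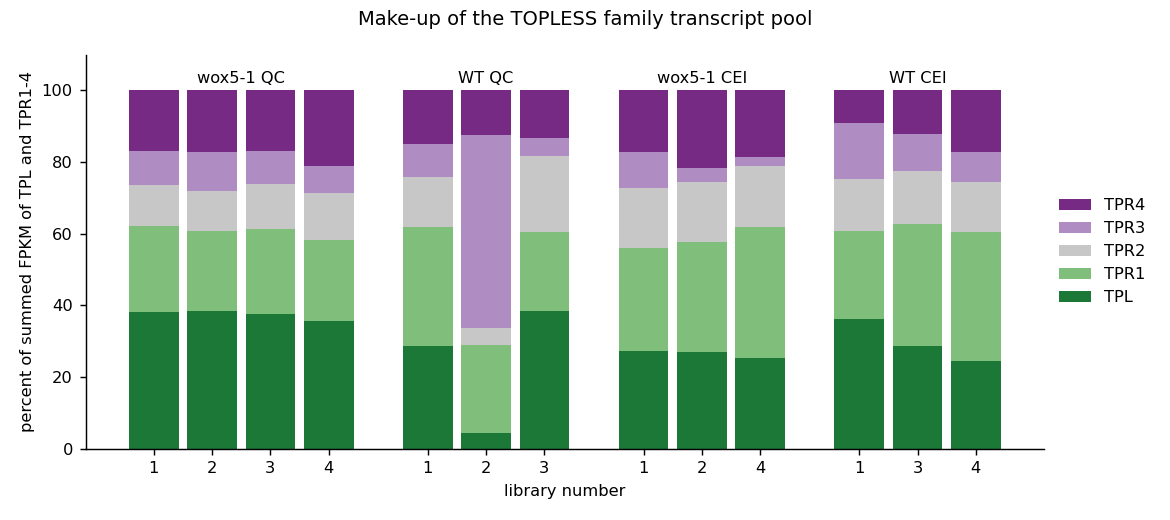
Share of TPL and TPR1 to TPR4 in their summed FPKM (stacked bars, y axis in percent) for each library, grouped with wox5-1 left of WT in each population. WT QC-marker library 2 stands apart, with TPL at 4.40% and TPR3 at 53.6% of the sum.

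WT QC-marker library 2 went against the other libraries in 3 family members in different directions. Its TPL and TPR2 were below those of all other 12 libraries, and its TPR3 was above all 12. TPR1 (19.0 FPKM) and TPR4 (9.72 FPKM) lay inside the range of the other libraries. In WT QC-marker libraries 1 and 3 TPR3 made up 9.09% and 4.95% of the sum, against 53.6% in library 2.

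HDA19, which RefSeq lists as HD1, is an RPD3-type deacetylase. It was at 88.9, 142.3, 107.5 and 63.8 FPKM in wox5-1 QC-marker cells, against 83.6, 94.4 and 71.2 FPKM in WT. The WT values lay inside the wox5-1 range, and the log2 change of 0.22 (SE 0.39, 95% interval -0.60 to 1.05) did not pass (adjusted p = 0.772, limma). In CEI-marker cells HDA19 was at 68.4, 27.7 and 37.1 FPKM in wox5-1, against 86.0, 92.1 and 47.1 FPKM in WT. The groups overlapped through wox5-1 library 1 and WT library 4. The log2 change was -0.79 (SE 0.41, 95% interval -1.67 to 0.09, adjusted p = 0.636, limma), and -1.45 with the 3 libraries that stood apart left out (adjusted p = 0.0163, within a range of 0.0163 to 1.0 over all alternatives, with 21.9% of all genes called in that fit).

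HDA19 was higher in QC-marker than in CEI-marker cells of wox5-1 by 1.20 on the log2 scale (SE 0.39, 95% interval 0.38 to 2.03), but missed the threshold (adjusted p = 0.0949, limma). It passed with only those groups in the fit (adjusted p = 0.0378), where 24.6% of all genes were called, and without wox5-1 CEI-marker library 1 (1.56, adjusted p = 0.038), where 6.15% were. Over all alternatives the adjusted p ran from 0.00493 to 0.340. The ranges overlapped, since wox5-1 QC-marker library 4 (63.8 FPKM) was below wox5-1 CEI-marker library 1 (68.4 FPKM). In WT the same difference was 0.19 (SE 0.41, adjusted p = 0.852, limma). The difference between the wox5-1 effects was 1.01 (SE 0.56, adjusted p = 0.509, limma). Group means were 100.6 ± 33.1 FPKM in wox5-1 QC-marker cells (SD, n = 4), 83.1 ± 11.6 FPKM in WT QC-marker cells, 44.4 ± 21.3 FPKM in wox5-1 CEI-marker cells and 75.1 ± 24.5 FPKM in WT CEI-marker cells (SD, n = 3 each). From high to low the order was wox5-1 QC-marker, WT QC-marker, WT CEI-marker and wox5-1 CEI-marker cells, with the first 3 within 1 SD of their neighbour.

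Per unit of summed TPL and TPR transcript, HDA19 stood at 0.804, 1.09, 1.09 and 0.675 in wox5-1 QC-marker cells, against 0.759, 1.22 and 0.880 in WT. In CEI-marker cells the ratio was 0.739, 0.473 and 0.421 in wox5-1, against 1.146, 0.958 and 0.370 in WT. The ranges of this ratio overlapped between the genotypes in both populations. WT CEI-marker library 4 had the lowest ratio of the 13, and WT QC-marker library 2 the highest.

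CDF4 is the target of this pathway and, as a CYCLING DOF FACTOR, belongs to a family best known for delaying flowering. It was at 12.6, 28.8, 19.8 and 10.96 FPKM in wox5-1 QC-marker cells, against 1.90, 21.7 and 1.97 FPKM in WT. The wox5-1 libraries were all above WT libraries 1 and 3, and WT library 2 was above 3 of the 4. The log2 change was 1.62 (SE 0.75, 95% interval 0.01 to 3.23), with an adjusted p = 0.250 in limma and an unadjusted p = 0.0485. Without WT library 2 it was 2.60 (SE 0.59) and passed (adjusted p = 0.0374, limma), where 3% of all genes were called. Over all alternatives the adjusted p ran from 0.0241 to 0.456. WT libraries 1 and 3 held an estimated 11.2 and 13.1 CDF4 fragments and library 2 99.6, against 298.5 to 853.9 in the wox5-1 libraries.

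In CEI-marker cells CDF4 stood between the percentiles 6.4 and 30.0 of all genes tested in wox5-1, and between 18.7 and 47.1 in WT. It was at 0.855, 2.95 and 0.703 FPKM in wox5-1, against 6.47, 1.13 and 5.36 FPKM in WT. Library 2 was the highest of wox5-1 and library 3 the lowest of WT, and through these the ranges overlapped. The log2 change of -1.01 (SE 0.80, 95% interval -2.73 to 0.71) did not pass (adjusted p = 0.746, limma). Its sign was opposite to that in QC-marker cells, and the difference between the wox5-1 effects was 2.63 (SE 1.099, 95% interval 0.27 to 4.98). That difference had an unadjusted p = 0.0312 and did not pass over all genes (adjusted p = 0.410, limma).

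Within wox5-1, CDF4 was higher in QC-marker than in CEI-marker cells by 2.94 on the log2 scale (SE 0.75, 95% interval 1.33 to 4.55), and this passed (adjusted p = 0.0404, limma). Its lowest QC-marker library, at 10.96 FPKM, was above its highest CEI-marker library, at 2.95 FPKM. The groups were apart in this direction in 26.5% of all genes tested. The wox5-1 CEI-marker libraries held an estimated 21.0, 46.8 and 17.6 CDF4 fragments. The call was close to the threshold: it was lost when any 1 of the 7 libraries compared was left out (adjusted p up to 0.155), while the change stayed between 2.69 and 3.33. Median-of-ratios scaling (2.53, adjusted p = 0.0825), a pseudocount of 0.1 (3.67, adjusted p = 0.0658) and no filter on low genes (adjusted p = 0.0593) also lost it, within a range of 0.000515 to 0.155 over all alternatives. In WT the same difference was 0.32 (SE 0.80, 95% interval -1.40 to 2.03), and it turned to -0.67 without WT QC-marker library 2.

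Group means of CDF4 were 18.04 ± 8.12 FPKM in wox5-1 QC-marker cells (SD, n = 4), 8.51 ± 11.4 FPKM in WT QC-marker cells, 1.502 ± 1.26 FPKM in wox5-1 CEI-marker cells and 4.32 ± 2.82 FPKM in WT CEI-marker cells (SD, n = 3 each). The order from high to low was wox5-1 QC-marker, WT QC-marker, WT CEI-marker and wox5-1 CEI-marker cells, and each neighbouring pair lay within 1 SD of the more variable group.

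**Figure D4:**
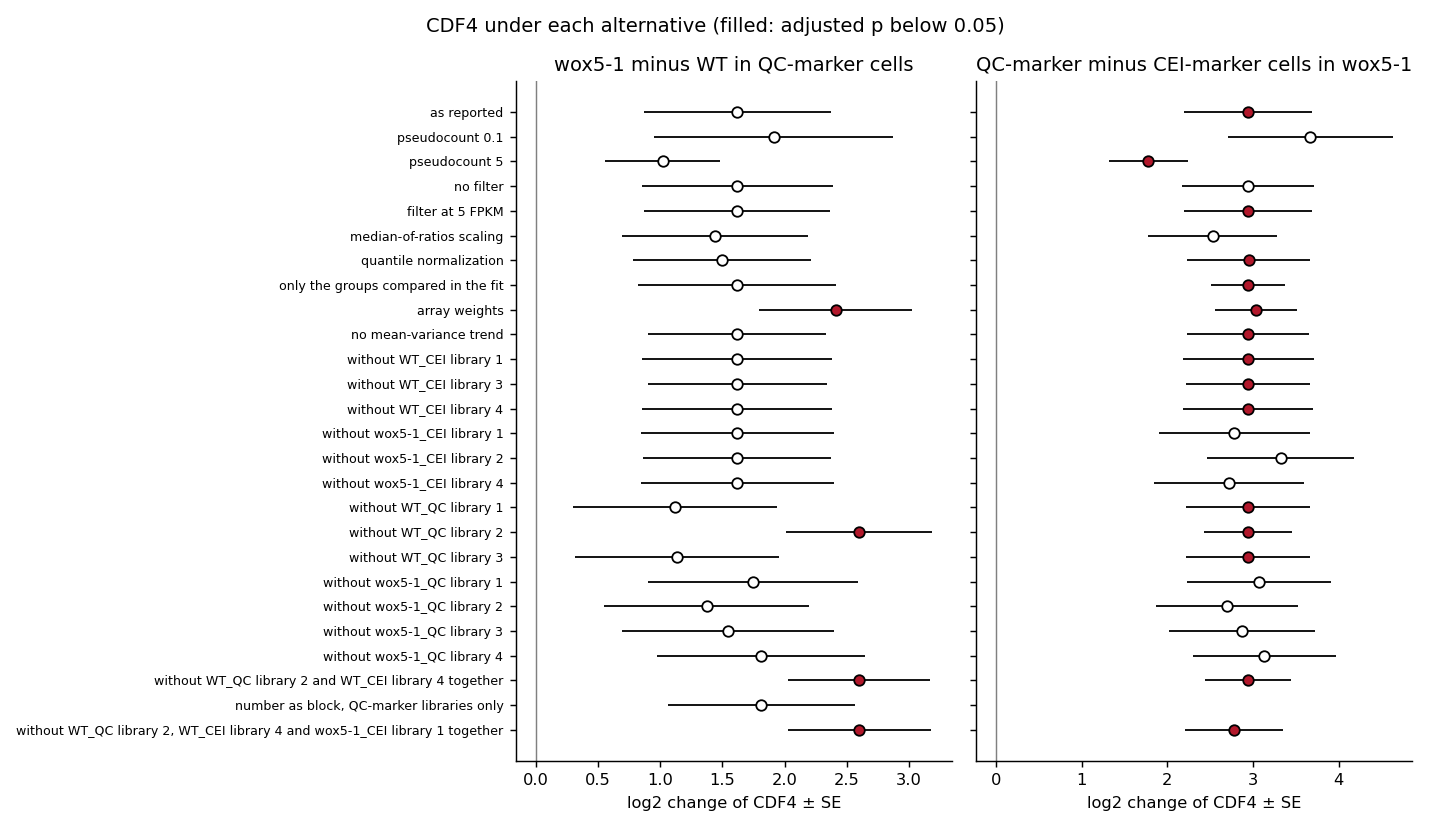
Log2 change of CDF4 ± SE (x axis) under each processing alternative (rows) for wox5-1 minus WT in QC-marker cells (left) and QC-marker minus CEI-marker cells in wox5-1 (right); filled points passed the test over all genes. All points lie above 0; on the left the filled points are those that leave out or down-weight WT QC-marker library 2, at 2.41 and 2.60.

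CDF4 is known to act in the columella. Of 10 columella and root cap markers, 6 were positive in QC-marker minus CEI-marker cells of wox5-1 (median log2 difference 1.32) and 9 were in WT (median 2.04), where CDF4 differed by 0.32. The medians over all genes were 0.30 in wox5-1 and -0.10 in WT. By limma 3 of the 10 were called higher in QC-marker cells of wox5-1, where 2.64% of all genes were, and 0 were in WT. The 3 were FEZ, a regulator of root cap stem cell division (log2 difference 4.60), the auxin carrier gene PIN3 (3.20) and the peptide gene CLE40 (2.75). They are named because they were called, and the markers outside the 6 positive ones were not higher in QC-marker cells. FEZ was at 70.6, 78.6, 74.8 and 48.0 FPKM in QC-marker cells of wox5-1, against 0.512, 2.53 and 3.06 FPKM in its CEI-marker cells. The summed level of the list ran from 319.4 to 411.0 FPKM in QC-marker cells of wox5-1 and from 213.1 to 296.0 FPKM in its CEI-marker cells, with up to 1 marker at 0 in a library. In WT it ran from 221.1 to 1126 FPKM in QC-marker cells and from 26.03 to 2463 FPKM in CEI-marker cells. The part of columella cells in the CDF4 values was not tested.

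The lists of related genes, 7 in number, held 47 genes, 42 of them tested. None of the 42 was called by limma in any of the 5 comparisons, but with only the compared groups in the fit 14 were called between the populations in wox5-1, where 24.6% of all genes were. At an unadjusted p under 0.05 there were 5 in wox5-1 against WT QC-marker cells, all higher in wox5-1, and 4 in CEI-marker cells, all lower in wox5-1. Between the populations there were 10 in wox5-1, 9 of them higher in QC-marker cells, and 1 in WT. The share of all genes under this unadjusted threshold was not counted, so these counts have no background beside them. In the order given, the smallest adjusted p of the 42 was 0.115, 0.593, 0.0893 and 0.361 in limma. Of the 42, 30 had a positive change in wox5-1 against WT QC-marker cells and 13 in CEI-marker cells, with medians of 0.24 and -0.39. Of the same 42, 40 were positive between the populations in wox5-1 (median 0.72) and 20 in WT (median -0.03). Over all genes the medians of these 4 comparisons were 0.32, 0.08, 0.30 and -0.10, in the order given. The share of all genes with a positive change was not counted.

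**Figure D5:**
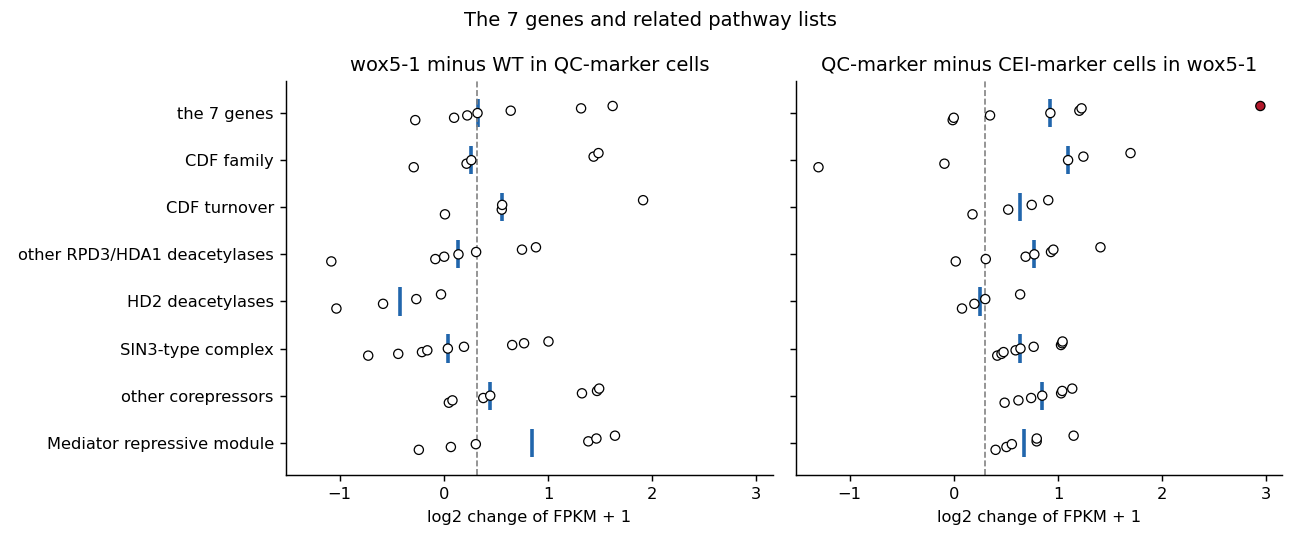
Log2 change of FPKM + 1 (x axis) of the 7 genes and of the 42 tested genes of 7 related lists (rows) in 2 comparisons; points are genes (filled: passed the test over all genes), blue lines are list medians and the dashed line is the median of all genes. In QC-marker minus CEI-marker cells of wox5-1, CDF4 at 2.94 lies beyond every gene of the lists.

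None of the 7 other corepressors or 6 Mediator genes passed in wox5-1 against WT QC-marker cells; their median log2 changes were 0.44 and 0.85, against 0.32 over all genes. Among other corepressors, SLK2, a SEUSS-like adaptor, was at 22.5, 21.3, 21.5 and 21.8 FPKM in wox5-1 QC-marker cells, against 15.6, 2.11 and 9.33 FPKM in WT (log2 change 1.49, SE 0.50, adjusted p = 0.115, limma). LUH, a homolog of the corepressor LEUNIG, was at 57.0, 67.6, 58.1 and 52.3 FPKM in wox5-1, against 50.8, 6.23 and 34.8 FPKM in WT QC-marker cells (1.33, SE 0.53). As with TPL, the groups were apart in both genes, as in 17.8% of all genes for a higher level in wox5-1. WT library 2 was the lowest by far in both. Among genes of Mediator, the complex between transcription factors and the polymerase, MED21 had a log2 change of 1.64 and the cyclin gene AT5G48630 one of 1.39, with WT library 2 at 0.372 and 0 FPKM. Neither passed (adjusted p = 0.269 and 0.307, limma).

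Among genes of deacetylase complexes, HDA2 was at 2.76, 4.35, 3.16 and 4.12 FPKM in wox5-1 QC-marker cells, against 4.55, 21.9 and 6.01 FPKM in WT (log2 change -1.08, SE 0.55, adjusted p = 0.291, limma). WT library 2 was again the farthest from the others, here as the highest. HDA14 had a log2 change of 0.88 (SE 0.55). The SIN3-like scaffold genes SNL2 and SNL3 had changes of 1.00 (SE 0.64) and -0.73 (SE 0.53). The deacetylases other than HDA19 thus gave values on both sides of 0. The plant-specific HD2 deacetylases were at high levels. HDT2 was at 151.5, 206.5, 196.1 and 131.3 FPKM in wox5-1 QC-marker cells, against 316.0, 201.4 and 254.6 FPKM in WT (-0.58, SE 0.57), and HDT3 had a change of -1.03 (SE 0.55, adjusted p = 0.313, limma).

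In CEI-marker cells the 4 genes with an unadjusted p under 0.05 were the 4 HD2 genes, HDT1 (-1.78), HDT2 (-1.34), HDT3 (-1.34) and HDT4 (-1.50), with adjusted p between 0.593 and 0.619 in limma. HDT1 was at 93.1, 27.4 and 22.1 FPKM in wox5-1 CEI-marker cells, against 322.1, 190.6 and 38.9 FPKM in WT. As in HDA19, wox5-1 library 1 lay above WT library 4, and the same held for HDT2, HDT3 and HDT4. Without WT QC-marker library 2 and WT CEI-marker library 4, these 4 were called lower in wox5-1, and 6 genes of the lists in all; 4.70% of all genes were then called, against 0.0278% with both libraries. HDT1 and HDT4 were named after these values were seen.

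The list of CYCLING DOF FACTOR relatives gave CDF3 at 7.06, 5.35, 4.46 and 4.61 FPKM in wox5-1 QC-marker cells, against 0.718, 0 and 5.63 FPKM in WT (log2 change 1.48, SE 0.63, adjusted p = 0.209, limma). CDF1 was at 7.83, 4.50, 4.64 and 7.90 FPKM in wox5-1, against 2.10, 0 and 4.63 FPKM in WT (1.44, SE 0.86). WT library 2, in which CDF4 was at 21.7 FPKM, thus listed both relatives at 0. Between the populations in wox5-1, CDF3 differed by 1.70 (SE 0.63, adjusted p = 0.143, limma) and CDF1 by 1.24 (SE 0.86), both smaller than the 2.94 of CDF4. Among the F-box proteins that mark CDF proteins for destruction, LKP2 was at 14.1, 18.2, 11.2 and 8.69 FPKM in wox5-1 QC-marker cells, against 7.35, 0 and 4.67 FPKM in WT (1.91, SE 0.64, adjusted p = 0.115, limma). ZTL had a change of 0.56 (SE 0.46).

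The genes nearest in pattern to 3 of the members were found by the root mean square difference of log2(FPKM + 1) over the 13 libraries, each gene centred on its own mean, among 8664 genes with a symbol. For TPL these were SMP1 (0.22), SIK1 (0.23) and SAE2 (0.23), where the median gene differed by 1.00. For HDA19 they were MSI1 (0.23), a histone-binding protein gene of the SIN3-type list, IQD29 (0.24) and TOP1ALPHA (0.24), where the median gene differed by 0.95. For CDF4 the nearest were DDF1 (0.49), SRO5 (0.50) and MAPKKK21 (0.58), further off than those of TPL and HDA19, where the median gene differed by 1.59. These are descriptions over libraries that share their group, depth and sort, and carry no test.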

How the data were processed

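RNA was measured in 13 libraries of root cells sorted by fluorescence. Per the labels' protocols, cDNA was amplified with a low-input SMARTer kit and fragmented by ultrasound. No molecular identifiers are named, so fragments of 1 gene are not independent molecules, and precision estimates cover the spread between libraries. The authors deposited FPKM for 33560 genes in a single table, and per the submitters' processing notes Cufflinks was used (version not stated). The sources used here do not give aligner, build or annotation, so no coordinates or sequences are printed. Names, overlaps and transcripts came from RefSeq (TAIR10.1), which held 32826 of the 33560 identifiers.

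Groups came from the titles, in which each library is a biological replicate. The columns of CEI-marker libraries carry numbers that do not match the titles, so the numbers are used as names only. Depth was estimated from the steps between low FPKM values, as the depth that put the largest share of them near whole fragments. In each library, 32.5% to 44.5% of these values came within 0.1 fragments of a whole number, and such a window covers 20% of the scale. Each share is the largest of a search over many depths, so an excess over 20% does not by itself show that the depth is right. The depth estimate entered no test.

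Limma 3.58.1 in R 4.3.3 was run, 2-sided and with a mean-variance trend, on log2(FPKM + 1) of the 21574 genes that reached 1 FPKM in 3 or more libraries, the 7 genes included. A single fit held the 13 libraries and 1 mean for each group, with 9 residual and 5.28 prior degrees of freedom. Benjamini-Hochberg adjustment ran over all genes tested, with calls at an adjusted p under 0.05. Changes on this scale understate those of low genes. The script was tested on simulated data. Depending on the comparison, it called 0 or 1 of 50 genes given a log2 change of 1. At a log2 change of 2 it called 10 to 14 of 50, and at 4 it called 43 to 48. A change that did not pass is thus not shown to be absent. Alternatives were pseudocounts of 0.1 and 5, no filter, a filter at 5 FPKM, median-of-ratios and quantile scaling, fits of the compared groups only, array weights, no trend, a block for the library number, and each library left out. The 7 genes and the lists were chosen with earlier results of these data known. All 7 are named in every comparison. In each related list up to 2 genes with the smallest p in wox5-1 against WT QC-marker cells are named, and beside them genes marked as named after their values were seen.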

Additional observations from a re-analysis of the deposited data

Results flagged for a closer look

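TPR2 in wox5-1 QC-marker cells had 1 library far from the others: library 2 was at 14.8 FPKM, while libraries 1, 3 and 4 lay between 12.3 and 12.7 FPKM. The gap divided by the range was 0.853, above Dixon's 95% critical value for 4 samples. Chance flags about 1 in 20 groups, and 7 groups were examined.

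The TPL effect of wox5-1 differed in sign between the populations. The mutant libraries were all above those of WT in QC-marker cells, as in 17.8% of all genes tested. In CEI-marker cells they were all below those of WT, as in 3.81%. The difference of the effects was 1.76 on the log2 scale (SE 0.83), and its test did not pass (adjusted p = 0.450, limma). Without WT QC-marker library 2 it was 0.80.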

How the results depend on the processing

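In wox5-1 against WT QC-marker cells 3.43% of all genes were called, 5.8% with array weights and 3% without WT QC-marker library 2. The share was 6.42% when WT CEI-marker library 4 was also left out, and 8.86% when wox5-1 CEI-marker library 1 was too. The count of called members was 0 and became 1 (CDF4) with array weights and without WT QC-marker library 2, alone or with other libraries. In CEI-marker cells it was 0 and became 2 without WT QC-marker library 2, WT CEI-marker library 4 and wox5-1 CEI-marker library 1, a set chosen after the data were seen, where 21.9% of all genes were called (4574 of 20884) against 6 genes with them. Between the populations in wox5-1 it was 1 and became 0 with a pseudocount of 0.1, no filter or median-of-ratios scaling, 3 with only the compared groups or without WT QC-marker library 2 and WT CEI-marker library 4, and 4 with array weights or without all 3 libraries. The share of all genes called there was 4.31%, and became 24.6% with only the compared groups, 20.5% without the 2 libraries, 34.8% with array weights and 31.8% without the 3. The count of members ran from 0 to 2 when 1 library was left out, where 1.06% to 11.7% of all genes were called. In WT it was 0 throughout. The difference of effects gave 0, and 3 without the 3 libraries, where 14.3% of all genes were called. No cause was tested.

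Signs turned for these values. In wox5-1 against WT QC-marker cells TPR1 was -0.055 with median-of-ratios, -0.021 with quantile scaling, -0.11 with array weights and -0.038 without the 2 or the 3 libraries; TPR2 was -0.28 with quantile scaling, -0.23 with weights and -0.31 without those libraries; TPR3 was 0.31 with weights and 0.56 without them. In CEI-marker cells TPR1 was 0.082 and TPR2 0.070 with weights, and 0.025 and 0.061 without the 2 libraries. Between the populations in wox5-1 TPR4 was -0.11 with median-of-ratios and -0.084 with quantile scaling, TPR1 was 0.0002 with a pseudocount of 0.1, and without the 3 libraries TPR1 was 0.045 and TPR2 0.094. In WT TPR3 was -0.073 and HDA19 -0.09 with median-of-ratios, and TPR3 -0.18 with quantile scaling. With weights TPL was 0.017, TPR1 0.061, TPR2 0.21, TPR3 -0.44, TPR4 0.45, HDA19 -0.068 and CDF4 -0.44 in WT, and without the 2 or the 3 libraries 0.18, 0.062, 0.36, -0.66, 0.52, -0.20 and -0.44. In the difference of effects TPR2 was -0.21 with quantile scaling. TPR1, TPR2 and TPR4 were -0.20, -0.30 and -0.21 with weights, -0.063, -0.37 and -0.18 without the 2 libraries, and -0.017, -0.26 and -0.13 without the 3.

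With 1 library left out, signs also turned within these ranges. In wox5-1 against WT QC-marker cells they were -0.080 to 0.41 for TPR1, -0.31 to 0.67 for TPR2 and -0.98 to 0.56 for TPR3. In CEI-marker cells they were -0.61 to 0.025 for TPR1, -0.27 to 0.095 for TPR2 and -0.093 to 0.68 for TPR4. Between the populations in wox5-1 they were -0.22 to 0.17 for TPR1 and -0.21 to 0.094 for TPR2. In WT they were -1.32 to 0.13 for TPL, -0.79 to 0.20 for TPR2, -0.65 to 0.89 for TPR3, -0.39 to 0.38 for TPR4, -0.11 to 0.37 for HDA19 and -0.67 to 0.82 for CDF4. In the difference of effects they were -0.21 to 0.77 for TPR2 and -0.036 to 0.73 for TPR4. TPL, TPR4, HDA19 and CDF4 kept a positive change in wox5-1 against WT QC-marker cells under every alternative run. The ranges were 0.36 to 1.80 for TPL, 0.40 to 0.86 for TPR4, 0.039 to 0.42 for HDA19 and 1.02 to 2.60 for CDF4.

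Whether library numbers pair the QC-marker libraries cannot be told from so few libraries. Deviations of libraries 1, 2 and 3 of the genotypes had correlations of 0.032, 0.090 and -0.057. Libraries 1 and 2, not 3, correlated best with their own number. With the number as a replicate block CDF4 had a change of 1.81 and 0 members were called. Depth limits the lowest values: CDF4 rests on 17.6 to 46.8 estimated fragments a library in wox5-1 CEI-marker cells and on 11.2 to 99.6 in WT QC-marker cells.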
